A study of Mus musculus with 18 samples.

Results

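Hindlimb buds of mouse embryos lacking Pitx1 were compared with wild type hindlimb buds at e11.5 (embryonic day) by RNA sequencing. The members were the 3 null and 3 wild type libraries of that stage, 6 of the 18 libraries of the series, and every one of the 13478 genes listed for them. Both genotypes were of the BALB/c strain and came from timed breedings. The null embryos carried a Pitx1 null allele, described as a knockout in the labels with no tissue-restricted driver named; which part of the gene it removes was not given in the sources used here. All 6 libraries were made by mRNA enrichment. Replicates 1 and 2 of each genotype came from a stranded sequencing run (run3982), and replicate 3 of each from an unstranded one (run126), so run was balanced over genotype and entered each fit as a term. Nothing in the labels ties a replicate to its own litter or pool of embryos. The p-values therefore cover the spread between the 6 libraries alone, which may be partly technical and may not be that between litters. Levels of sex genes, given below, differed between libraries of the same genotype. For reference, 3 null and 3 wild type hindlimb libraries of the same strain at e11.0, and 3 hindlimb (e11.0) and 3 forelimb (e10.5) libraries of CD1 wild type embryos, were used where named.

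Pitx1 is a bicoid-class homeodomain transcription factor made in the early hindlimb field and absent from the forelimb. It acts upstream of Tbx4, a T-box factor of the hindlimb, and mice without it have short hindlimbs with altered pelvis, knee and fibula. At the stage sampled, limb mesenchyme under the apical ectodermal ridge proliferates in response to Fgf, Shh, Wnt and Bmp signals, the first cartilage condensations form in the core, tendon progenitors appear, and muscle precursors that migrated from the somites begin to differentiate.

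Among the gene lists examined, cartilage, muscle and tendon genes held the most falls in the null buds, with 15 of 19, 12 of 15 and 12 of 19 listed members lower. Rises were fewer: 7 of 20 cell cycle genes, 6 of 18 Bmp pathway genes and 6 of 29 limb mesenchyme factors were higher. So were 5 of 20 Fgf genes, 5 of 17 anterior Hox genes and 4 of 8 general limb bud mesenchyme markers. Lists share members, and these 4 markers are also counted among the limb mesenchyme factors or Fgf genes. With 1 library left out, rises numbered as few as 0 for cell cycle genes and 2 for Fgf and anterior Hox genes. They numbered at least 5 for Bmp pathway genes and limb mesenchyme factors. Falls then numbered at least 13 for cartilage, 8 for muscle and 6 for tendon genes. The lists were chosen with earlier results of these data known, so their counts describe these libraries only. With limma on log2(CPM + 1), where CPM is a gene's reads per 1000000 reads on listed genes, and a Benjamini-Hochberg adjusted p under 0.05, 1455 genes differed, 10.8% of those tested. Of these, 1073 were lower in the null buds (7.96% of those tested) and 382 were higher (2.83%). Most differences were small: 401 calls were at least 0.5 in log2 fold change (362 lower and 39 higher) and 56 were at least 1 (50 lower and 6 higher). Under TMM scaling, which shifted the median over all genes, in log2 fold change, from -0.02 to 0.01, 917 were lower and 691 higher, so that the higher share of the calls went from 26.3% to 43%. The authors' deposited table called 1468 genes lower and 1176 higher with edgeR. The count depended on single libraries: it was 433 without null replicate 2, 465 without wild type replicate 3, 471 without null replicate 3, 784 without wild type replicate 2 and 2627 without null replicate 1.

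The libraries held 30.2 to 53.6 M reads on listed genes (M, 1000000), so 1 read was worth at most 0.0331 CPM. On the first principal component, with 72.3% of the variance, the replicate 3 libraries of the unstranded run stood apart from the other 4, and on the second, with 17.7%, the genotypes separated. Among the calls, which rest on these same libraries, the difference was larger in the unstranded run for 876 of the 1073 falls, with a median log2 difference of -0.53 in the unstranded run and -0.36 in the stranded run. For 301 of the 382 rises it was also larger in the unstranded run, with medians of 0.36 and 0.23. Genes enter the table when they exceed 0.5 CPM in 3 libraries, and 6 of the falls and 1 of the rises exceeded it in the higher group alone. Such genes had to differ, and for those named below (Cnmd, Vgll2, AK157302 and Gm35082) no p-value is given. Run, strand and replicate number cannot be told apart here, since the unstranded run supplied 1 library of each genotype. In the plot of the difference in each run, Pitx1, Tbx4, Matn4, Gbx2 and Vegfd lie close to the line of equal differences, and Aldh1a2, which encodes a retinoic acid synthesizing enzyme, lies far from it.

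**Figure D1:**
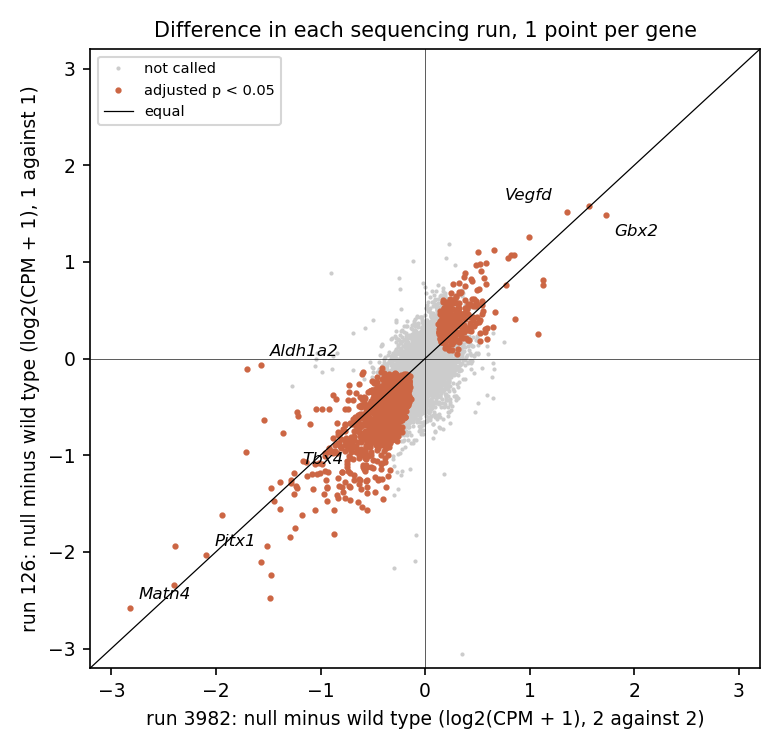
Difference between null and wild type hindlimb buds at e11.5 in the stranded run (x axis, run3982, mean of 2 against 2 libraries) and in the unstranded run (y axis, run126, 1 against 1), on the log2(CPM + 1) scale, 1 point per listed gene. Genes with a limma adjusted p under 0.05 are orange; they were called from the same 6 libraries, so their place near the diagonal is no separate evidence. Aldh1a2 lies far from the line of equal differences.

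Pitx1 itself was the most strongly supported fall, and Tbx4 was the other hindlimb identity gene that fell. Pitx1 (ENSMUSG00000021506, chr13:55825051-55836192 in GRCm38) read 319, 330 and 365 CPM in the wild type libraries and 72.05, 78.8 and 88.6 CPM in the null libraries. The groups were far apart, with a 4.23-fold lower mean in the null buds (log2 fold change -2.07 ± 0.05 SE, adjusted p = 1.87e-07). Reads on the gene thus remained in the null buds, and gene-level counts cannot tell whether they come from a truncated transcript. Tbx4 (chr11:85886422-85916097) read 178, 170 and 220 CPM in wild type and 76.0, 69.3 and 96.3 CPM in null buds. These groups did not overlap either, and the null mean was 2.35-fold lower (log2 fold change -1.23 ± 0.05, adjusted p = 1.01e-05). Both calls held with each library left out in turn.

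The other 6 listed identity genes did not pass the test. Isl1, a LIM-homeodomain factor that acts early in the hindlimb field, read 13.3, 15.7 and 32.6 CPM in wild type and 12.73, 13.04 and 26.04 CPM in null buds (log2 fold change -0.20, adjusted p = 0.127). In both genotypes the library of the unstranded run was the high one, and the groups overlapped. The 5′ HoxC genes that mark the hindlimb along the body axis had log2 fold changes of -0.17 for Hoxc9, -0.10 for Hoxc10, -0.06 for Hoxc11 and 0.06 for Hoxc13, with adjusted p-values of 0.15, 0.311, 0.557 and 0.812. Tbx5, the forelimb T-box factor, and Hoxc12 were below the level at which genes were listed and were not analysed here. The listed forelimb-level genes Hoxc4, Hoxc5, Hoxc6 and Hoxc8 were not called.

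**Figure D2:**
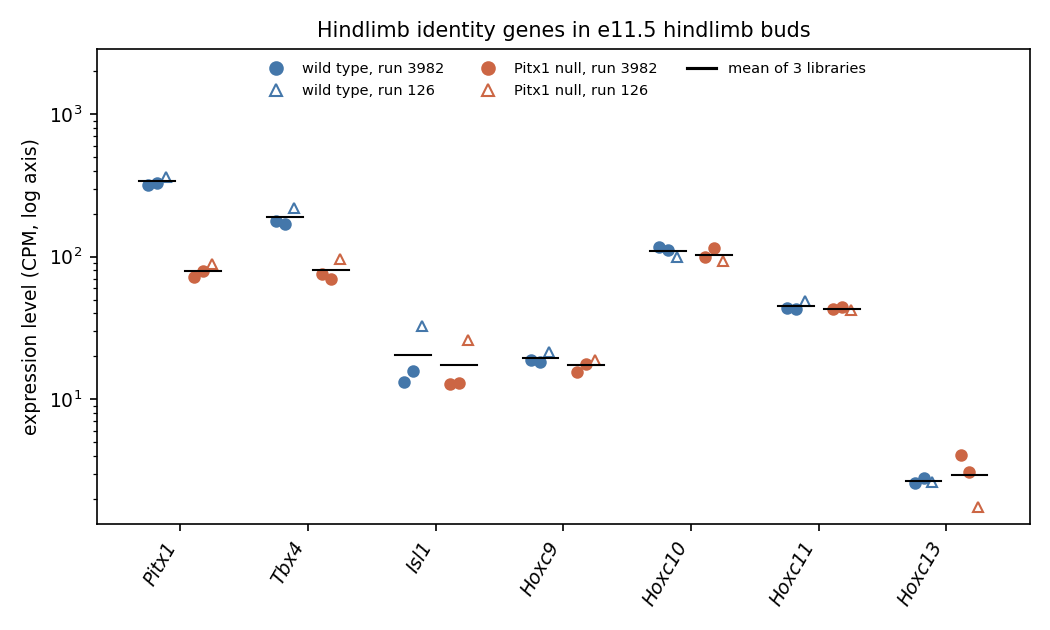
Expression level in CPM (log axis) of 7 listed hindlimb identity genes in each e11.5 library, wild type in blue and null in orange, with unstranded libraries (run126) as open triangles and bars at the mean of 3 libraries. Only Pitx1 and Tbx4 separate by genotype; heights are not comparable between genes, since CPM is not scaled to gene length.

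Upstream sequences are shown for 4 genes that fell and that recur below: Tbx4, the cartilage matrix genes Matn4 and Cnmd, and Sox6, a chondrogenic transcription factor. They are the 250 bases before a transcription start in RefSeq (GRCm38.p6), 5′ to 3′ on the strand of the gene, and contain no exon of the GENCODE basic annotation. Capitals mark TAATCC, the core recognised by bicoid-class homeodomains such as that of Pitx1, and CAGCTG, an E-box, on either strand; ACAATG, a Sox core, was also searched and was not found in them. The Tbx4 start lies inside the annotated gene, and the Sox6 start is the most downstream of its 6 in the table. It was chosen because it alone of the 6 holds TAATCC; 2 of the other Sox6 windows hold ACAATG.
Matn4, chr2:164405161-164405410, minus strand: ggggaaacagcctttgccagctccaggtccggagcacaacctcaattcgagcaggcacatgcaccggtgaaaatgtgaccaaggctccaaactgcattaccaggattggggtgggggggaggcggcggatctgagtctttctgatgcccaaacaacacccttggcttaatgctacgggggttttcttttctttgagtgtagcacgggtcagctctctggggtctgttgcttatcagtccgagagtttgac
Cnmd, chr14:79662184-79662433, minus strand: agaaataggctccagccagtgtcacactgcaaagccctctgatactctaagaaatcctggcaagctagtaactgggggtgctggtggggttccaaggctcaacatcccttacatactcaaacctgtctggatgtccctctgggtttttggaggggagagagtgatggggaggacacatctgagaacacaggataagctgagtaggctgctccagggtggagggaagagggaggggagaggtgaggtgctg
Tbx4, chr11:85896515-85896764, plus strand: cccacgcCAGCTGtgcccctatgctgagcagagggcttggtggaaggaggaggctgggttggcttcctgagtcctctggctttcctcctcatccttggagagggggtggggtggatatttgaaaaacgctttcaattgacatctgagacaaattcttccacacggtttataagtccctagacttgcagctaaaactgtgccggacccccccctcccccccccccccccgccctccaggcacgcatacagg
Sox6, chr7:115801610-115801859, minus strand: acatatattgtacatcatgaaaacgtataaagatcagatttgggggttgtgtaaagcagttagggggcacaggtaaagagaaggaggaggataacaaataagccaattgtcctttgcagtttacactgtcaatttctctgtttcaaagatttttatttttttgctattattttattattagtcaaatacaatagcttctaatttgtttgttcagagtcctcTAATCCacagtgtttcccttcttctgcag
Among the promoters from 250 bases before to 50 bases after the start, TAATCC was present for 6.9% of the 826 lower genes that had an entry, 4.47% of the 291 higher genes and 6.5% of the 9063 genes not called, and in 7.06% of all single windows in the table. CAGCTG was present for 26.8%, 14.1% and 17.1% of the same groups and in 16.3% of all windows. ACAATG was present for 83 of the 826 lower genes, for 6.87% of the higher genes and 8.77% of those not called, and in 12.6% of all windows. Genes with several starts have more windows to match in, and a match is a description of the letters only.

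Genes of cartilage differentiation were lower across the list. Of 24 cartilage genes chosen, 19 were listed. Of these, 15 fell, beside 7.96% of all genes, and none rose. The list was chosen with earlier results of these data known, so the gap to all genes is no test of it. Its falls include Cnmd, which had to differ and to separate by genotype. The median log2 fold change of the 19 was -0.87, beside -0.02 for all genes. The summed level of the list was 1470 to 1570 CPM in the wild type libraries and 789 to 991 CPM in the null libraries, and 12 of the 19 members were lower in every null library than in any wild type library, beside 1481 of all 13478 genes (11%). Between 13 and 16 members fell when each library was left out in turn. In bulk buds, fewer cells of a type and less RNA per cell cannot be told apart.

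Transcription factors of the chondrocyte lineage were among the falls. Sox9, the factor required for cartilage formation, read 201, 213 and 206 CPM in wild type and 145, 109 and 74.1 CPM in null buds (log2 fold change -0.96 ± 0.15, adjusted p = 0.00551). All null values lay below all wild type values, and the gap was wider in the unstranded run (-1.46) than in the stranded run (-0.72). Sox6, a partner of Sox9 on cartilage enhancers, went from 29.1, 34.0 and 27.6 CPM to 15.1, 11 and 10.3 CPM (-1.26 ± 0.11, adjusted p = 0.000645), again with no overlap. Sox5, the other partner, fell and overlapped between the groups, at 54.6, 58.4 and 45.3 CPM against 49.2, 43.0 and 29.4 CPM (-0.40 ± 0.08, adjusted p = 0.0181). The Sox5 call was lost without null replicate 2, null replicate 3 or wild type replicate 3, with adjusted p-values of 0.0976, 0.0948 and 0.0985. Runx2, a factor of hypertrophic cartilage and bone, fell from 9.31, 10.9 and 12.7 CPM to 6.15, 4.13 and 3.66 CPM (-1.10 ± 0.17, adjusted p = 0.0053). Its groups did not overlap. Runx3 (0.01, adjusted p = 0.967) and Trps1 (-0.22, adjusted p = 0.177), both regulators of later chondrocyte maturation, did not pass the test.

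The largest falls of the list were in matrix genes. Matn4, encoding matrilin 4 of the cartilage matrix (ENSMUSG00000016995, chr2:164389393-164405160), read 9.71, 8.83 and 6.65 CPM in wild type buds and 0.595, 0.317 and 0.280 CPM in null buds. Its null mean was 21.1-fold lower (log2 fold change -2.74 ± 0.11, adjusted p = 9.82e-06), the largest fall on the log2(CPM + 1) scale among the genes named by the rule. Cnmd, which encodes chondromodulin, an inhibitor of vessel growth in cartilage, read 4.14, 3.93 and 2.35 CPM against 0.364, 0.264 and 0.0933 CPM (log2 fold change -1.83). It was listed through the wild type libraries alone, and Matn4 exceeded the listing level in 1 null library. For Matn4 every null library stood well below every wild type library, while for Cnmd the listing itself required this order.

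The genes for the fibrillar and fibril-associated collagens of cartilage were lower together. Col2a1, for the chief cartilage collagen, went from 540, 601 and 689 CPM to 275, 264 and 300 CPM (-1.12 ± 0.06, adjusted p = 2.19e-05). Col9a3 went from 19.2, 19.6 and 17.2 CPM to 7.14, 4.82 and 3.25 CPM (-1.75 ± 0.14, adjusted p = 0.000497). Col9a2 read 32.1, 35.9 and 27.6 CPM against 13.3, 10.03 and 5.07 CPM (-1.73 ± 0.16, adjusted p = 0.000713). None of these 3 overlapped between the genotypes. Smaller falls were seen in Col9a1 (-0.77), Col11a1 (-0.47) and Col11a2 (-1.01), in Wwp2, a ubiquitin ligase gene that hosts a cartilage microRNA (-0.53), in Papss2, a sulphate donor synthase needed for proteoglycans (-0.83), and in Cytl1, for a cytokine-like secreted protein (-0.87). Papss2 was not called without null replicate 2 (adjusted p = 0.0626). Hapln1, for the link protein of aggrecan, was 55.8, 51.0 and 42.7 CPM in wild type and 50.7, 56.9 and 43.3 CPM in null buds, with overlapping groups (0.01, adjusted p = 0.918). Matn3 did not pass the test either (-0.11, adjusted p = 0.608). Acan and Matn1 were not listed at e11.5 and were not analysed here.

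**Figure D3:**
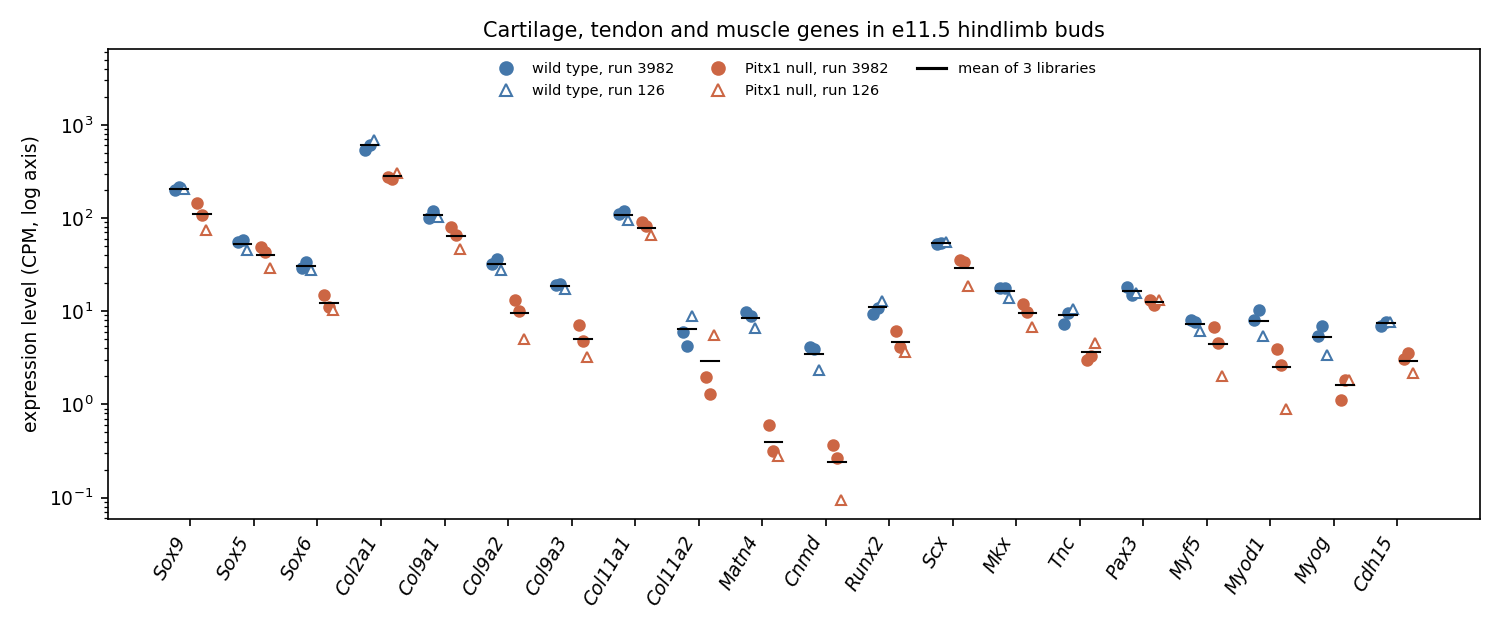
Expression level in CPM (log axis) of 20 genes of cartilage (Sox9 to Runx2), tendon (Scx to Tnc) and muscle (Pax3 to Cdh15) in each e11.5 library, drawn as in the plot of identity genes. All 20 passed the test as lower in null buds, but Cnmd was listed through the wild type libraries alone and had to differ. Matn4 and Cnmd show the widest gaps, and Sox5, Col11a2 and Myf5 overlap between genotypes.

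Muscle lineage genes showed a similar count of falls. Of 22 muscle genes chosen, 15 were listed. Of these, 12 fell and 1 rose, beside 7.96% and 2.83% of all genes. The median log2 fold change of the 15 was -0.69. The summed level was 349 to 373 CPM in wild type and 234 to 271 CPM in null libraries. The count of falls was 8 to 13 with each library left out in turn. Myod1, the factor that commits cells to muscle, read 8.08, 10.3 and 5.38 CPM in wild type and 3.97, 2.67 and 0.895 CPM in null buds (log2 fold change -1.42 ± 0.15, adjusted p = 0.00123). Myog, which drives the differentiation of myoblasts, read 5.43, 6.93 and 3.41 CPM against 1.12, 1.83 and 1.85 CPM (-1.24 ± 0.19, adjusted p = 0.00593). Cdh15, encoding the muscle cadherin, read 6.98, 7.57 and 7.76 CPM against 3.08, 3.60 and 2.16 CPM (-1.11 ± 0.12, adjusted p = 0.00123). The groups were separate for all 3 genes.

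Factors of muscle precursors were also lower. Pax7 went from 1.75, 2.22 and 2.05 CPM to 0.232, 0.317 and 1.08 CPM (-0.999 ± 0.15, adjusted p = 0.00513), a 3.69-fold lower mean, with no overlap. The null library of the unstranded run was the highest of its group, and it was the 1 null library over the listing level. Pax3, made in the precursors as they enter the bud, read 18.4, 14.9 and 15.8 CPM against 13.06, 11.8 and 13.04 CPM (-0.34 ± 0.09, adjusted p = 0.0466). Its call was lost under TMM scaling (adjusted p = 0.0569) and without null replicate 2 (0.175), null replicate 3 (0.113), wild type replicate 1 (0.115) or wild type replicate 3 (0.114). Lbx1, needed for their migration, fell by 0.44 on the log2 scale, Met, the receptor that guides them, by 0.58, and Eya1, a cofactor gene upstream of the myogenic genes, by 0.48. Met was called in all 6 leave-one-out fits, Lbx1 and Eya1 in 3. Myf5 overlapped between the groups, at 8.13, 7.71 and 6.17 CPM against 6.75, 4.58 and 2.01 CPM (-0.71 ± 0.18, adjusted p = 0.036), and was called in 2 of the 6. The contractile genes Actc1 (-0.96) and Tnnt1 (-0.83) fell, and Des, for desmin, did not pass the test (0.08, adjusted p = 0.828). Chrna1, for the muscle acetylcholine receptor, was the member that rose, from 0.985, 1.23 and 1.09 CPM to 1.65, 2.38 and 3.49 CPM (0.71 ± 0.15, adjusted p = 0.0208). That call was lost without wild type replicate 1, wild type replicate 3, null replicate 2 or null replicate 3, with adjusted p-values of 0.0546, 0.118, 0.101 and 0.126.

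Tendon and connective tissue genes also included many falls. Of 19 listed, 12 fell and 1 rose, beside 7.96% and 2.83% of all genes. The median log2 fold change of the 19 was -0.42. The count of falls was 6 without null replicate 2, 7 without null replicate 3 and 7 without wild type replicate 3. Scx, the marker factor of tendon progenitors, read 52.6, 54.2 and 55.5 CPM in wild type and 35.7, 34.0 and 18.5 CPM in null buds (log2 fold change -0.91 ± 0.16, adjusted p = 0.00872). The wild type values were close together and the null values all lower, that of the unstranded run most of all. Mkx, a second tendon factor, fell by 0.75, and Tcf7l2, a Wnt effector that marks muscle connective tissue, fell by 0.77. Tnc, for the matrix glycoprotein tenascin C, went from 7.26, 9.50 and 10.6 CPM to 3.01, 3.31 and 4.57 CPM (-1.13 ± 0.11, adjusted p = 0.000829) with no overlap. Among the general collagens Col3a1 (-0.29), Col5a1 (-0.47) and Col12a1 (-0.66) fell, while Col1a1 overlapped and did not pass (-0.11, adjusted p = 0.536). Col14a1 rose, from 2.36, 3.56 and 4.76 CPM to 4.46, 7.43 and 10.8 CPM, with overlapping groups (0.87 ± 0.17, adjusted p = 0.0152). The Col14a1 call was lost without wild type replicate 1 (adjusted p = 0.0514), wild type replicate 3 (0.07), null replicate 2 (0.0808) or null replicate 3 (0.0729).

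Ligands and modulators of the Tgfb and activin family, which act on tendon progenitors and condensing mesenchyme, showed 5 falls and no rise among 8 listed. The share of all genes that fell was 7.96%. Tgfb2 read 57.1, 73.3 and 38.8 CPM in wild type and 35.6, 36.4 and 14.96 CPM in null buds (log2 fold change -0.99 ± 0.12, adjusted p = 0.00169). Fst, for follistatin, which binds activins, read 4.28, 3.56 and 2.47 CPM against 1.69, 1.19 and 0.634 CPM (-1.04 ± 0.11, adjusted p = 0.00123). Neither gene overlapped between genotypes. Tgfb3 (-0.57) and Gdf10 (-0.77) also fell. Ltbp1, which encodes a latent Tgfb binding protein, passed at an adjusted p of 0.0352 (-0.44) but not with a replicate block (0.0509). The number of falls was 2 without null replicate 2, 3 without null replicate 3 and 3 without wild type replicate 3. Gdf5, a Bmp-family ligand of early joints, also fell, from 7.23, 9.88 and 4.88 CPM to 5.09, 4.37 and 1.36 CPM (-0.92 ± 0.15, adjusted p = 0.00701), with overlap between the groups.

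Large falls occurred outside these lists. Nfatc2, a calcium-regulated transcription factor with a known role in cartilage, read 17.98, 17.66 and 19.48 CPM in wild type and 6.98, 4.66 and 2.69 CPM in null buds (log2 fold change -1.82 ± 0.20, adjusted p = 0.00123). Dab1, the adaptor of reelin signalling, read 13.3, 13.7 and 11.1 CPM against 3.84, 4.34 and 2.16 CPM (-1.65 ± 0.11, adjusted p = 0.000134). Vgll2, a cofactor of TEAD factors known from muscle, read 2.73, 2.46 and 1.96 CPM against 0.331, 0.265 and 0.168 CPM (-1.43). The groups of Nfatc2 and Dab1 did not overlap, but the naming rule asked for separate groups in the stranded run. Vgll2 was listed through the wild type libraries alone, so its groups had to differ. Ndnf, for a secreted neuron-derived factor, fell by 1.46 on the log2 scale, and Sned1, for a matrix protein, fell by 1.48. E130114P18Rik read 7.46, 6.88 and 5.05 CPM against 0.529, 0.582 and 0.578 CPM (-2.24 ± 0.12, adjusted p = 2.62e-05). AK157302, on chromosome 13, read 4.08, 5.25 and 4.35 CPM in wild type and 0.0331, 0.106 and 0.0560 CPM in null buds (-2.38), so it was almost without reads in the null libraries. The opposite held for the noncoding gene Gm35082 on chromosome 7, at 0.0281, 0.0268 and 0.0188 CPM in wild type, each worth 1 read, and 1.52, 2.67 and 2.03 CPM in null buds (1.57). At e11.0 the log2 fold changes of AK157302, E130114P18Rik and Gm35082 were -2.40, -1.68 and 1.68. Genes entered the e11.0 table by the same listing level, so a gene near 0 CPM in 1 genotype had to differ there too. The e11.0 calls of these genes are therefore not separate evidence.

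Transcription factors that pattern the limb mesenchyme moved in both directions. Of 29 listed, 6 rose and 5 fell, beside 2.83% and 7.96% of all genes. Their median log2 fold change was -0.01, and 10 fell without null replicate 1. Among the falls were T-box genes that shape the limb skeleton: Tbx18 read 161, 152 and 111 CPM in wild type and 99.1, 81.8 and 41.8 CPM in null buds (-0.99 ± 0.12, adjusted p = 0.00181), and Tbx15 read 335, 314 and 269 CPM against 237, 201 and 139 CPM (-0.70 ± 0.09, adjusted p = 0.00231). Neither overlapped. Gsc, a homeodomain factor of the proximal limb, fell by 0.61. Tbx2, which neighbours Tbx4 on chromosome 11, overlapped between the groups, at 92.2, 94.8 and 120 CPM against 112, 121 and 128 CPM, and rose in the fit with a term for run (0.24 ± 0.06, adjusted p = 0.0331); it was called in 3 of 6 leave-one-out fits.

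The 6 rises were Tbx2, Lhx2, Prrx2, Msx1, Msx2 and Sall3. Lhx2, a LIM-homeodomain factor under the ridge, read 109, 100 and 104 CPM in wild type and 144, 150 and 204 CPM in null buds (0.65 ± 0.09, adjusted p = 0.00385). Msx2, a Bmp-responsive homeodomain factor, read 30.7, 28.1 and 28.6 CPM against 48.6, 40.0 and 35.7 CPM (0.48 ± 0.09, adjusted p = 0.0118). Prrx2, a paired-class factor of limb mesenchyme, read 96.1, 91.9 and 114 CPM against 121, 124 and 146 CPM (0.37 ± 0.04, adjusted p = 0.00208). All null values exceeded all wild type values for these 3, and Msx1 rose likewise (0.30). General mesenchyme factors such as Prrx1 (-0.17, adjusted p = 0.179) and Twist1 (0.13, adjusted p = 0.0943) did not pass the test.

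Of 10 factors of the anterior limb and girdle, 3 rose and 3 fell, beside 2.83% and 7.96% of all genes. Alx1 (0.56) and Alx4 (0.25), aristaless-class factor genes of the anterior bud, passed the test as higher with overlapping groups, but each was called in 2 of 6 leave-one-out fits, and 1 of the 3 rises was left without wild type replicate 1, wild type replicate 3, null replicate 2 or null replicate 3. Pax9, a paired-box factor of anterior mesenchyme, went from 6.16, 5.30 and 3.69 CPM to 2.18, 1.09 and 0.597 CPM (-1.44 ± 0.15, adjusted p = 0.00123), and Asb4, for an ankyrin repeat protein, went from 584, 575 and 468 CPM to 413, 383 and 269 CPM (-0.63 ± 0.06, adjusted p = 0.000943). Both were separated by genotype.

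Hox genes passed the test mostly as rises of under 1 on the log2 scale. Of 11 genes of the posterior HoxA and HoxD groups, 3 rose and 1 fell, beside 2.83% and 7.96% of all genes. Hoxa11 and Hoxd11, paralogues that pattern the lower leg, rose by 0.46 and 0.41, and Hoxd10 rose by 0.34. Hoxd11 read 78.3, 75.9 and 93.4 CPM in wild type and 116, 107 and 106 CPM in null buds, with no overlap, whereas Hoxa11 overlapped because it was low in both libraries of the unstranded run. Without null replicate 2, 1 of these 3 rises was called. Evx2, next to the HoxD cluster, passed as lower (-0.75, adjusted p = 0.045) but not with a replicate block (0.0551), nor without wild type replicate 1 (0.0639), wild type replicate 3 (0.173), null replicate 2 (0.162) or null replicate 3 (0.165). The digit genes Hoxa13 (-0.55, adjusted p = 0.0692) and Hoxd13 (-0.14, adjusted p = 0.513) did not pass.

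Of 17 listed anterior Hox genes, which are made mainly in the trunk and proximal bud, 5 rose and none fell. All 5 were in the HoxB cluster, and 2.83% of all genes rose. Hoxb6 read 2.42, 1.87 and 5.06 CPM in wild type and 3.41, 4.02 and 11.02 CPM in null buds (log2 fold change 0.72 ± 0.12, adjusted p = 0.00796). Within each run every null library exceeded every wild type library, although the groups overlapped across runs. Hoxb2 (0.64), Hoxb3 (0.52), Hoxb7 (0.53) and Hoxb8 (0.51) rose likewise. The number of rises was 2 without null replicate 2, 3 without null replicate 3, 3 without wild type replicate 3 and 8 without null replicate 1.

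Genes of the Shh pathway, which patterns the bud from its posterior margin, gave 2 rises and 3 falls among 14. The shares of all genes were 2.83% higher and 7.96% lower. Shh itself read 19.1, 16.6 and 14.8 CPM in wild type and 17.7, 19.3 and 12.9 CPM in null buds, with overlapping groups (log2 fold change -0.03, adjusted p = 0.846). The receptor and target Ptch1 (0.08, adjusted p = 0.339), the effector Gli1 (0.27, adjusted p = 0.0637) and Hand2, which activates Shh (-0.12, adjusted p = 0.113), did not pass. The coreceptor genes Cdon (-0.37), Boc (-0.45) and Gas1 (-0.29) fell. Cdon went from 154, 172 and 165 CPM to 131, 127 and 120 CPM with no overlap (adjusted p = 0.0053), and it alone of the 3 was called in all 6 leave-one-out fits. Without wild type replicate 3 or null replicate 3, 1 fall was left, and without wild type replicate 3, null replicate 2 or null replicate 3, 1 rise was left.

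In the Bmp pathway 6 of 18 genes rose and 2 fell, beside 2.83% and 7.96% of all genes. The ligand gene Bmp4 read 69.4, 62.8 and 71.8 CPM in wild type and 87.0, 86.0 and 90.6 CPM in null buds (log2 fold change 0.37 ± 0.05, adjusted p = 0.00442), and Id1, a direct target of Bmp signalling, read 76.3, 79.6 and 74.6 CPM against 124, 109 and 90.7 CPM (0.47 ± 0.07, adjusted p = 0.00569). Both were separated by genotype. Dkk1, a secreted Wnt inhibitor that responds to Bmp, went from 10.2, 8.54 and 8.15 CPM to 17.96, 17.33 and 18.17 CPM (0.92 ± 0.09, adjusted p = 0.000911), a 1.99-fold higher mean with no overlap. Bmp7 (0.47) and Grem1, the Bmp antagonist that links Shh to the ridge (0.40), rose with overlap across runs, Grem1 from 80.4, 77.8 and 61.4 CPM to 112, 102 and 77.3 CPM (adjusted p = 0.00364). Of the falls, Gdf5 is given above, and Bmpr1b (-0.28), a receptor gene of condensations, was called in 1 of 6 leave-one-out fits, with 1 fall left without wild type replicate 2, wild type replicate 3, null replicate 2 or null replicate 3.

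Fgf genes of the ridge and of the response to it gave 5 rises and 3 falls among 20, beside 2.83% and 7.96% of all genes. Fgf10, the mesenchymal signal that maintains the ridge, read 33.4, 31.3 and 21.8 CPM in wild type and 48.8, 47.6 and 39.7 CPM in null buds (log2 fold change 0.65 ± 0.07, adjusted p = 0.00123). Spry4, a feedback inhibitor induced by Fgf, read 45.8, 52.7 and 55.3 CPM against 63.1, 70.1 and 82.4 CPM (0.47 ± 0.07, adjusted p = 0.00491). Neither overlapped. The ridge ligand genes Fgf8 (0.45, adjusted p = 0.0559) and Fgf4 (0.49, adjusted p = 0.0532) were just outside the threshold, with overlapping groups. Fgf9, a further ridge and mesenchyme ligand gene, fell from 6.02, 5.54 and 4.86 CPM to 4.2, 3.44 and 1.68 CPM (-0.71 ± 0.14, adjusted p = 0.0147). The rises numbered 3 without wild type replicate 2 and 2 without wild type replicate 3, null replicate 2 or null replicate 3, and the falls 1 without wild type replicate 1 and 0 without wild type replicate 3, null replicate 2 or null replicate 3.

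In the Wnt pathway 4 of 25 genes rose and 5 fell, beside 2.83% and 7.96% of all genes. Wnt7a, the dorsal ectoderm ligand gene, read 12.4, 14.2 and 11.6 CPM in wild type and 18.6, 20.4 and 19.7 CPM in null buds (log2 fold change 0.59 ± 0.08, adjusted p = 0.00414). Sfrp2, for a secreted Wnt binding protein of the mesenchyme, went the other way, from 96.4, 101 and 97.9 CPM to 60.7, 49.8 and 55.9 CPM (-0.82 ± 0.07, adjusted p = 0.000634). Both were clearly separated by genotype. The inhibitor genes Wif1 (-0.80) and Dkk3 (-0.51) and the genes Wnt11 (-0.43) and Sp5 (-0.40) fell, and Axin2, a general target of the pathway, rose by 0.27. Without null replicate 2 there was 1 rise and 1 fall, and without wild type replicate 3 or null replicate 3 there were 2 of each; 2 rises remained without wild type replicate 2.

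Aldh1a2, the gene of the main retinoic acid synthesizing enzyme of the flank and proximal bud, was the member of its list whose difference depended on run. It read 18.7 and 22.5 CPM in the wild type and 5.92 and 6.67 CPM in the null libraries of the stranded run, a log2 difference of -1.57, and 51.8 and 49.6 CPM in the unstranded run, a difference of -0.06. It passed over both runs (-1.06 ± 0.25, adjusted p = 0.0298) but not without wild type replicate 1 (0.0832), wild type replicate 2 (0.0604), null replicate 1 (0.0552) or null replicate 2 (0.136). Of the 16 listed proximal and retinoic acid genes 1 other passed, Crabp1, for a retinoic acid binding protein (0.55), called in 3 of 6 leave-one-out fits. The list thus held 1 rise and 1 fall, beside 2.83% and 7.96% of all genes.

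**Figure D4:**
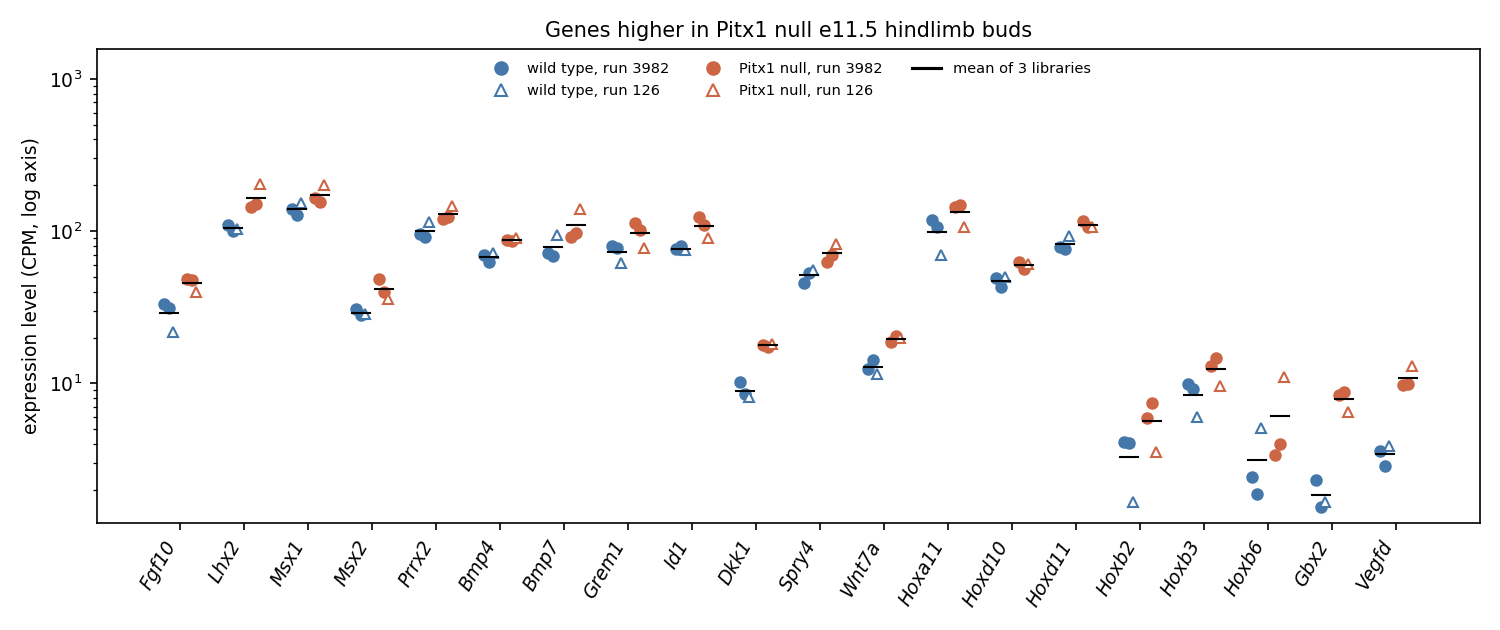
Expression level in CPM (log axis) of 20 genes that were higher in null buds, by library, drawn as in the plot of identity genes. Gbx2 and Vegfd show the widest gaps; for Bmp7, Grem1, Hoxa11, Hoxb2, Hoxb3 and Hoxb6 the genotypes overlap across runs but not within a run.

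The largest rises were in single genes of different roles, named by a rule that asked for separate groups in the stranded run. Gbx2, a homeodomain factor gene best known from the midbrain boundary (chr1:89927956-89931179), read 2.31, 1.55 and 1.68 CPM in wild type and 8.40, 8.84 and 6.49 CPM in null buds (log2 fold change 1.65 ± 0.12, adjusted p = 0.000164). The null mean was 4.29-fold higher and the groups were far apart. The opposite-strand gene D130058E05Rik overlaps it and also rose (0.71), so reads of the unstranded run could belong to either gene. Vegfd, encoding a growth factor of lymphatic and blood vessels (chrX:164373378-164402650), read 3.60, 2.86 and 3.88 CPM against 9.69, 9.95 and 12.9 CPM (1.41 ± 0.09, adjusted p = 0.000164), a 3.15-fold higher mean without overlap. Rab6b, for a Golgi transport GTPase, rose by 1.02 and Gpx2, for a glutathione peroxidase, by 1.004. Bhlha9, a basic helix-loop-helix factor gene of the distal limb linked to digit malformation, read 10.2, 8.51 and 10.3 CPM against 15.8, 17.4 and 18.1 CPM (0.77 ± 0.08, adjusted p = 0.00123), again with no overlap. Tfap2c, an ectodermal transcription factor gene, rose by 0.82.

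Among 20 genes of axon guidance, which also steer limb nerves and vessels, 7 fell and 1 rose, beside 7.96% and 2.83% of all genes. The median log2 fold change of the 20 was -0.24. The largest fall was that of Robo2, a Slit receptor gene, from 224, 227 and 168 CPM to 197, 145 and 70.4 CPM with overlap (-0.69 ± 0.16, adjusted p = 0.0289). The number of falls was 12 without null replicate 1, 3 without wild type replicate 2, 2 without null replicate 2, and 1 without wild type replicate 3 or null replicate 3. Slit2, a ligand gene, rose by 0.31 and was called in 2 of 6 such fits.

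Of 20 cell cycle genes 7 rose and 2 fell, beside 2.83% and 7.96% of all genes. The rises were small, from 0.16 for Ccnb1 to 0.23 for Cdk1, which read 176, 168 and 150 CPM in wild type and 199, 197 and 185 CPM in null buds. They numbered 2 without wild type replicate 1 and 0 without wild type replicate 2, wild type replicate 3, null replicate 2 or null replicate 3. The falls were the cyclin-dependent kinase inhibitor genes Cdkn1c (-0.69 ± 0.09, adjusted p = 0.00339) and Cdkn1a (-0.42, adjusted p = 0.0172), which slow the cycle in differentiating cells. Cdkn1c was called in all 6 leave-one-out fits and Cdkn1a in 2. Cdkn1c read 656, 753 and 424 CPM in wild type and 472, 499 and 211 CPM in null buds, lower in the null within each run but overlapping across runs. Hmga1, a chromatin protein gene of early developmental stages and 1 of 7 timing genes, rose from 149, 145 and 149 CPM to 174, 190 and 210 CPM (0.37 ± 0.06, adjusted p = 0.00586), with no overlap.

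In the hypoxia and glycolysis list 2 of 15 rose (Ldha by 0.30 and Eno1 by 0.32) and 1 fell (Egln3, -0.35, called in 1 of 6 leave-one-out fits). Over all genes 2.83% rose and 7.96% fell, so 1 fall among 15 is near that share. Without null replicate 1, 5 rose; without wild type replicate 2, 1 rose; and without wild type replicate 3, null replicate 2 or null replicate 3, none did. None of 20 cytosolic ribosomal protein genes was called, with a median log2 fold change of 0.13, but 19 of them rose without null replicate 1. Of 12 stress and immediate early genes 3 rose and 2 fell, the latter being Jun (-0.58) and Trp53inp1 (-0.81), with 1 rise without wild type replicate 2, wild type replicate 3, null replicate 2 or null replicate 3, and 1 fall without null replicate 2.

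**Figure D5:**
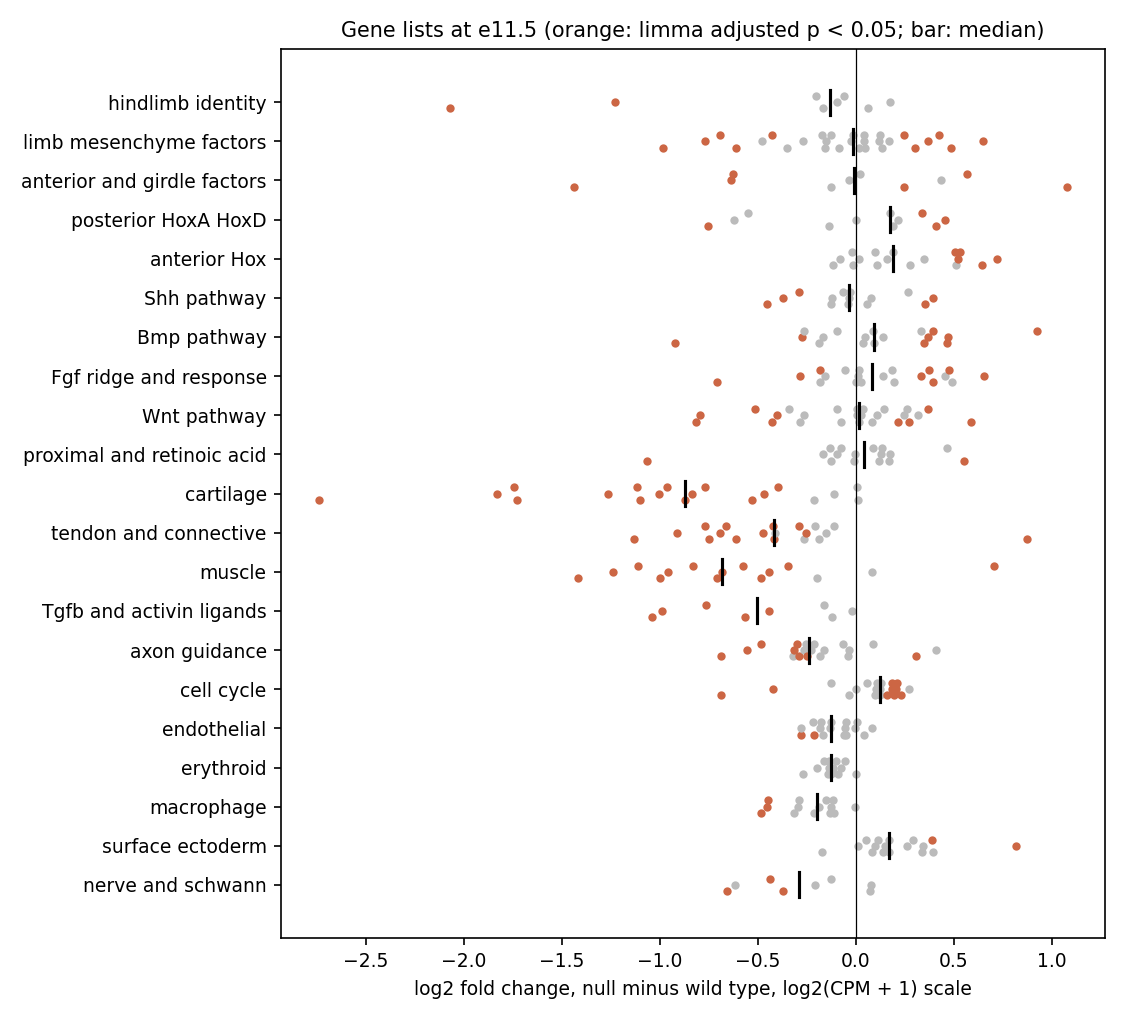
Log2 fold change, null minus wild type, of each listed member of 21 gene lists at e11.5 (x axis, log2(CPM + 1) scale), with called genes in orange, other genes in grey and a black bar at the median of each list. The medians of the cartilage (-0.87), muscle (-0.69), Tgfb and activin (-0.51) and tendon (-0.42) lists lie well to the left of the all-gene median of -0.02.

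Markers of other cell types in the bud differed between genotypes for some types. Over all genes 2.83% were called higher and 7.96% lower, and counts of 1 or 2 calls in a list are not read as a result about it. General limb bud mesenchyme markers summed to 1450 to 1750 CPM in wild type and 1420 to 1840 CPM in null libraries, so that the sums overlapped. Of these markers 4 of 8 were higher (Prrx2, Msx1, Msx2 and Fgf10), and all 4 are counted in the lists above too. Surface ectoderm markers were higher in sum in every null library, at 502 to 582 CPM against 413 to 483 CPM. Of the 17 members, 1 was lower in null buds in the stranded run and 7 in the unstranded run. The test called 2 of the 17 (Tfap2c and Cldn6), 6 under TMM scaling, 4 without wild type replicate 1 and 1 without any other single library except null replicate 1. Nerve and Schwann cell markers were lower in sum, at 69.6 to 101 CPM against 118 to 122 CPM. Of the 8 members, 5 were lower in null buds in the stranded run and 8 in the unstranded run. The test called 3 of the 8 (Dcx, Erbb3 and Stmn2), 1 without null replicate 2 and 0 without wild type replicate 3 or null replicate 3. Macrophage markers were also lower, at 40.0 to 49.5 CPM against 50.6 to 62.3 CPM, with 3 of 14 called (Csf1r, C1qa and Pf4), 0 without wild type replicate 3 or null replicate 3, and 1 without wild type replicate 2, null replicate 1 or null replicate 2. Endothelial markers overlapped, at 486 to 598 CPM against 555 to 628 CPM, with 2 of 17 called (Cdh5 and Tie1) and 0 without wild type replicate 1, 2 or 3 or null replicate 2 or 3. Erythroid markers gave no calls among 13, and trunk and somite markers 1 among 7 (Sim1, called in 2 of 6 leave-one-out fits). Genes that tell the sex of the embryos varied strongly among libraries of 1 genotype. The Y-linked gene Ddx3y read 73.4, 30.0 and 16.8 CPM in wild type and 70.9, 27.1 and 3.17 CPM in null buds, and Xist, made from the inactive X, read 0.0844, 140 and 585 CPM against 0.232, 69.2 and 650 CPM. Replicate 1 of each genotype was thus nearly without Xist, and the libraries with more Xist had less Ddx3y. The 5 sex genes did not pass the limma test, with a median log2 fold change of -0.76, which was -0.10 in the stranded and -2.09 in the unstranded run; the authors' deposited table called 3 of the 5 lower. Ddx3y was thus lower in the null than in the wild type library of the unstranded run. The part of the sex mix and of the ectoderm, nerve and macrophage differences in the results above was not tested.

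The genes around Pitx1 on chromosome 13 were examined because a null allele is kept with the sequence linked to it. Of 75 listed genes within 5 Mb of Pitx1, Pitx1 included, 10 were lower and 5 higher, together 15 called. The share called was 9.62% of 156 genes at 5 to 20 Mb from it and 10.7% of 12473 genes on the other autosomes. Kif27, a kinesin gene, read 8.05, 7.20 and 7.34 CPM in wild type and 2.81, 2.54 and 2.35 CPM in null buds (log2 fold change -1.26 ± 0.09, adjusted p = 0.000164), and the receptor genes Fgfr4 (-1.02) and Ntrk2 (-1.06) also fell within that span. None of the 3 overlapped between genotypes. Among the 10 listed genes next to Pitx1, counting Pitx1, the other falls were Tgfbi (-0.37, adjusted p = 0.0116) and Txndc15 (-0.22, adjusted p = 0.0496). Only Pitx1 was called without null replicate 2, and Txndc15 was called in none of the 6 leave-one-out fits. Linked sequence and loss of Pitx1 cannot be told apart at these genes.

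At e11.0 the same comparison, in rRNA-depleted libraries of other embryos, called 13.1% of 14027 genes, 1179 lower (8.41%) and 664 higher (4.73%). Of the 1073 genes lower at e11.5, 959 were listed at e11.0 and 351 were lower there too, which is 32.7% of the e11.5 and 29.8% of the e11.0 falls; 3 were higher. Of the 382 higher genes, 379 were listed and 113 were higher at e11.0, 29.6% and 17.0% of the respective rises; 7 were lower. The log2 fold changes of Pitx1 were -2.50 at e11.0 and -2.07 at e11.5, and those of Tbx4 -1.19 and -1.23. Neither change with stage passed the test of the interaction (adjusted p = 0.105 and 0.901).

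The difference between stages was tested for 12935 genes listed in both, and 0.363% were called, 25 with a more negative and 22 with a more positive effect at e11.5. Cartilage genes were among the former: Col2a1 had log2 fold changes of -0.13 at e11.0 and -1.12 at e11.5 (difference -0.99, adjusted p = 0.000316). Col9a2 (-0.31 and -1.73), Col9a3 (-0.43 and -1.75) and Sox6 (-0.25 and -1.26) were called in the same direction, whereas Sox9 was not (difference -0.05). Of the cartilage list, 9 of 15 listed were lower at e11.0 and 15 of 19 at e11.5. Gbx2 (0.45 and 1.65), Vegfd (0.15 and 1.41), Lhx2 (-0.24 and 0.65) and Grem1 (-0.38 and 0.40) had more positive effects at e11.5. Stage and library type differ together between these tables and cannot be told apart. Replicates 1 and 2 of both stages came from the stranded run (run3982), and replicate 3 came from a different run at each stage. The count of 47 calls ranged from 10 without e11.0 null replicate 2 to 2567 without e11.0 wild type replicate 2, and fell to 17 or fewer without e11.0 wild type replicate 1 (13), e11.5 wild type replicate 2 (13), e11.5 wild type replicate 3 (12), e11.5 null replicate 2 (17) or e11.5 null replicate 3 (12); it was 31 without e11.0 null replicate 1.

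Genes that differ between wild type hindlimb and forelimb buds of the CD1 strain were compared last. Limb type and embryonic age differ together there and cannot be told apart, and the e11.5 buds were of another strain, BALB/c. In CD1 wild type buds, hindlimb at e11.0 against forelimb at e10.5, 5.87% of 13540 genes were called, 326 higher in hindlimb (2.41%) and 469 lower (3.46%). Of the former, 316 were listed at e11.5, where 75 (23.7%) were lower in the null buds and 30 (9.49%) higher. Of the genes higher in forelimb, 436 were listed, of which 94 (21.6%) were lower in the null buds and 28 (6.42%) higher. The share lower in null buds was thus 23.7% for one class and 21.6% for the other, beside 7.96% of all genes tested; the difference between the classes was not tested. With a CD1 difference of at least 1 on the log2 scale, 28 genes higher in the e11.0 hindlimb were listed. Of these, 9 were lower in null buds and none was higher. Of 38 listed genes higher in the e10.5 forelimb, 9 were lower and 5 higher.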

How the data were processed

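RNA from hindlimb buds was sequenced, and the deposited tables hold CPM per gene and library, log2 fold changes, and p-values with their adjusted form from edgeR, per the file headers. They also hold the authors' edgeR likelihood ratio, a score that was not used. Alignment used STAR, counting featureCounts and the build mm10 (GRCm38), per the submitters' processing notes; the sources at hand gave no versions. In the deposited tables CPM sum to 1000000 per library, and every listed gene exceeds 0.5 CPM in at least 3 libraries, so genes absent in both genotypes are not listed. Low CPM values were whole multiples of 1 read, which gave the depth; it sets the precision for low genes.

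Values were tested as log2(CPM + 1) with limma 3.58.1 in R 4.3.3 (trend, terms for genotype and run, 3 residual degrees of freedom), with Benjamini-Hochberg adjustment over all 13478 genes and a threshold of 0.05. ± is the SE of the log2 fold change, and fold changes on this scale understate low genes. The effect of stage was tested as an interaction in 12 libraries. Same-numbered libraries of both genotypes deviated together (correlations 0.73, 0.83 and 0.91 for replicates 1, 2 and 3, beside 0.63 and 0.63 for crossed numbers 1 and 2). Replicate 3 also shares a run, which enters these correlations. The reported fit does not pair the libraries, and a replicate block was fitted as an alternative. That pairing comes from these correlations, not the labels.

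Named genes were the hindlimb identity list, the 15 largest falls and 15 largest rises with separate groups in the stranded run and the same sign in the unstranded one, up to 5 called members of each other list, and the 5 largest interactions; all other named genes were chosen after their values were seen. Members and lists were chosen with earlier results of these data known. Alternatives were other pseudocounts, filters, scalings, run terms, a replicate block, and each library left out. Symbols and positions are from GENCODE M21 (13463 genes matched), and promoters from RefSeq GRCm38.p6 (10180 of 13476 symbols). The e11.5 model was tested on simulated data. Count tests were not run. Some genes of the lists and of the naming rule are not reported here. Python 3.11.15, pandas 2.3.3 and matplotlib 3.10.9 were also used.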

Additional observations from a re-analysis of the deposited data

Results flagged for a closer look

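The effect of the null allele differed between e11.5 and e11.0 by the interaction test for 23 of the named and listed genes reported here. Values below are the e11.5 minus the e11.0 log2 fold change. The 2 stages differ in library type as well, and their replicate 3 libraries differ in run. The effect was more negative at e11.5 for the cartilage genes Col9a2 (-1.42), Col9a3 (-1.31), Sox6 (-1.01) and Col2a1 (-0.99), for Tnc of tendon (-1.31), for Tnnt1 of muscle (-1.27) and for Meox1 (-1.05), a somite factor gene. Likewise negative were Scrn1 (-1.58), Ndnf (-1.38), the platelet factor gene Pf4 (-0.96), Sim1 (-0.79), Erbb3 of Schwann cells (-0.73), Barx2 (-0.67) and Sema3c (-0.64).

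The effect was more positive at e11.5 for Vegfd (1.26), Gbx2 (1.20), Lmx1b (0.91), Lhx2 (0.89), Lhx9 (0.84), Grem1 (0.78), Msx1 (0.71), Asb4 (0.70) and Prrx2 (0.60). Lhx9 had log2 fold changes of -0.86 at e11.0 and -0.03 at e11.5, and Lmx1b, the dorsal LIM-homeodomain factor gene, -0.74 and 0.17. Asb4 was lower in null buds at both stages, at -1.32 and -0.63. Of the 23, 7 were called with each of the 12 libraries left out in turn: Ndnf, Gbx2, Vegfd, Asb4, Scrn1, Lhx9 and Col2a1.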

How the results depend on the processing

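Of the alternatives at e11.5, a pseudocount of 0.5 (1432 calls), a mean of at least 1 CPM (1420), upper-quartile scaling (1499) and leaving out globin, mitochondrial and noncoding genes (1482) kept the number of calls within 1.5 times the 1455 reported. A replicate block gave 1437 (381 higher, 1056 lower), 1316 of them calls of the reported fit. TMM scaling gave 1608 calls with 691 higher and 917 lower, and median-ratio scaling 1662 with 743 higher and 919 lower; of the reported calls, 1299 and 1300 were made again. Without a run term 11 genes were called (2 higher, 9 lower), and with the stranded run alone 483 (104 higher, 379 lower), 457 of them reported calls. The authors' deposited table called 2644 (1176 higher, 1468 lower), with 1435 of the 1455 at the same sign. Leaving out 1 library gave 433 to 2627 calls, 60 to 965 higher and 365 to 1662 lower. The number of interactions was 76 with median-ratio scaling, 71 with upper-quartile scaling, 210 with a replicate block, 18 with the stranded run alone, and 10 to 2567 with 1 library left out. Across the genes of the lists and those named, no call changed sign under any alternative run; 551 results of single genes lost their call under an alternative and 180 gained one, and 6174 did neither. The replicate block ended the calls of Evx2 (0.0551), Ltbp1 (0.0509) and Txndc15 (0.0568). Each genotype had 3 libraries of 30.2 to 53.6 M reads; how far depth or the number of libraries limits small differences was not tested. Count models on reads recovered from CPM were not run.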

Other observations

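Matrix gene families were examined beyond the lists of the report. These families were defined by gene symbol after the values were seen, so the counts describe these libraries only. Of 34 listed collagen genes, 15 belong to the lists above, and of the other 19, 8 were lower and none higher, beside 7.96% of all genes lower. Col8a1, for a short-chain collagen, read 5.40, 7.76 and 3.31 CPM in wild type and 2.15, 2.01 and 0.802 CPM in null buds (limma log2 fold change -1.27, adjusted p = 0.000922), with no overlap. Col25a1, for a transmembrane collagen, read 69.8, 70.5 and 57.1 CPM against 45.5, 46.0 and 38.0 CPM (-0.60, adjusted p = 0.000427), also without overlap. Of 20 genes for ADAMTS proteins, which are extracellular proteases that cut matrix proteins, and for ADAMTS-like proteins, 8 were lower and 2 higher. Adamts17 read 40.9, 43.5 and 40.8 CPM in wild type and 20.9, 22.2 and 15.5 CPM in null buds (-1.07, adjusted p = 0.000443). The ADAMTS-like gene Adamtsl3 fell by 1.02, while Adamts1 rose by 0.40 and Adamts20 by 0.44.

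Of 19 phosphodiesterase genes 7 were lower and none higher, beside 7.96% of all genes lower. Of 358 zinc finger genes with the symbol Zfp 18 (5.03%) were lower, under the share of all genes, and none was higher. Of 54 genes with the symbol of a translation initiation factor, 6 were higher, among them the pseudogene Eif4a-ps4. Of mitochondrial and cytosolic ribosomal protein genes, 6 of 78 and 4 of 74 were higher. None of these 3 families held a fall, and 2.83% of all genes were higher. These families too were defined after the values were seen, and their counts were not made again with a library left out. Of 13 listed genes of the mitochondrial genome, 6 were lower.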
